A study of Homo sapiens with 30 samples.

Results

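The genes described here encode the proteins of the cytosolic ribosome, the particle that translates nuclear messenger RNA. They were chosen by symbol, as RPS or RPL followed by a number, with RPSA and the stalk genes RPLP0, RPLP1 and RPLP2 added, and by a mean of at least 10 CPM (read counts scaled to library size by the authors) over the 30 libraries. The rule found 77 of the 20114 symbols of the table, 28 of the small subunit and 49 of the large subunit. All 77 were among the 12743 genes that passed the filter on low values and were tested. Of 87 symbols that match the pattern, the rule set aside 2, the small-subunit gene RPS15A and the paralog RPS27L. A further 8 had a mean below the minimum.

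A ribosome holds 1 copy of most of these proteins, so cells make them in matched amounts. Their messenger RNAs belong to the TOP class, named for the terminal oligopyrimidine tract, a run of C and T that begins with a C at the very 5′ end. Growth signals through the kinase mTOR set how well TOP messages are translated, and the protein LARP1 binds their 5′ end. Proteins made in excess of the ribosomes under assembly are degraded, and free RPL5 and RPL11, held together with the 5S RNA, can restrain MDM2 and so stabilise p53.

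SUM190 is a long-established human line from an inflammatory breast cancer, with ERBB2 amplification. Polyadenylated RNA was sequenced from 15 groups of 2 libraries, taken from a doxorubicin-resistant derivative (DR), a paclitaxel-resistant derivative (PR) and the parental cells (Par). All cells were seeded, given drug or the vehicle DMSO after 24 h and kept in it for 72 h. DR cells received doxorubicin, a DNA intercalator and topoisomerase II poison, at 350 nM or 1 µM, or DMSO. PR cells received paclitaxel, which stabilises microtubules, at 6.5 or 10 nM, ruxolitinib, an inhibitor of JAK1 and JAK2, ruxolitinib with 6.5 nM paclitaxel, or DMSO. Parental cells were given DMSO, either of 2 doses of paclitaxel (2.5 and 10 nM) or of doxorubicin (65 nM and 1 µM), or ruxolitinib without or with 2.5 nM paclitaxel. Ruxolitinib is labelled 15 µM where given alone and 15 nM in both combinations. The labels do not say how the resistant lines were selected or whether they are clones, and they leave it unsaid if replicates came from separate cultures. The p-values therefore rest on the spread between these libraries alone, which may be technical.

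Libraries held 18443749 to 32669995 reads in genes, and the lowest count of any of the 77 genes in a library was 198 reads. The 10 genes that mark SUM190, ERBB2 and luminal keratins among them, summed to 7136 to 10760 CPM in every library, against 27.6 to 58.1 CPM for 19 markers of stromal, endothelial, immune and basal cells. Of those, COL1A2, COL3A1 and CD3E were at or below 3 reads in 27 to 29 of the 30 libraries, while COL1A1 (4.31 to 11.99 CPM), CD68 (6.77 to 36.5 CPM), TP63 (1.89 to 14.5 CPM), VWF (0.322 to 7.08 CPM) and CDH5 (0.354 to 6.06 CPM) were above that in every library. Of the 19, 10 passed the filter, and of these 5 rose and 2 fell at 1 µM doxorubicin in parental cells (median log2 fold change 0.55). Of all tested genes 34.3% were called up and 41.5% down there. Single genes that mark SUM190 varied unequally over the libraries. EPCAM ran from 306 to 441 CPM, KRT19 from 299 to 1441 CPM and SPDEF from 5.97 to 102 CPM. Both parental DMSO libraries stood apart from each other. Across all genes, which are not independent replicates, their difference followed transcript GC content (Spearman rho 0.784), and 74 of the 77 ribosomal protein genes were higher in replicate 2, by a median of 0.21 on the log2 scale. Median shifts of similar size between replicates occurred in parental cells at 1 µM doxorubicin (-0.25), in DR cells at 350 nM doxorubicin (-0.24) and in PR cells at 10 nM paclitaxel (-0.21). Each comparison that uses these libraries is therefore given also without them where a count changes by more than 1.5 times or the median changes sign.

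The sequence around the start site is shown first, because the pyrimidine run that defines a TOP message lies there. RefSeq start windows on GRCh38.p14 were found for 63 of the 77 genes. A run was scored as a C followed by at least 6 bases that are C or T, on the coding strand, within 20 bases on either side of the annotated start. It was present in 51 of 63 ribosomal protein genes (81.0%), against 18.99% of the other tested genes and 19.96% of all 27305 windows. In the translation factors that belong to the TOP class it was present in 15 of 17 (88.2%). It was present in 17.5% of 40 ribosome biogenesis genes and in 15.6% of 64 genes for proteins of the mitochondrial ribosome, whose messages are not TOP messages. The letters CCGGAAG or CTTCCGG, the core that ETS factors read, lay on either strand of the whole windows, which reach from 250 bases before the start to 50 after it, in 33.3% of the ribosomal protein genes and in 10.7% of all windows. They lay in 19.002% of the windows of other tested genes, in 23.5% of those of the TOP translation factors, in 37.5% of those of the biogenesis genes and in 42.2% of those of the mitochondrial ribosome. A match to letters is a description of the sequence and not evidence of binding or of a start at that base.

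The windows of the genes on which the results below turn follow, each with 35 bases before and 15 bases from the annotated start, 5′ to 3′, with the scored run in capitals. The first set are genes with the largest falls at 1 µM doxorubicin in parental cells. They lie at chr19:39435935-39435984, minus strand (RPS16), chr5:150449725-150449774, minus strand (RPS14), chr4:108620541-108620590, plus strand (RPL34) and chr22:39319609-39319658, minus strand (RPL3). In RPL3 no run was scored in this window.
RPS16: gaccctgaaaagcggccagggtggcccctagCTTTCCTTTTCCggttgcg
RPS14: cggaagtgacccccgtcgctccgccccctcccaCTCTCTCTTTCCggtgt
RPL34: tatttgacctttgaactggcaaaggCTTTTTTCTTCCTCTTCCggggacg
RPL3: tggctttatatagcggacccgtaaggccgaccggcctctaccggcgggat

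The second set are genes that rose there, RPLP1 at chr15:69452783-69452832, plus strand, RPS12 at chr6:132814534-132814583, plus strand and RPL15 at chr3:23916510-23916559, plus strand. Runs of 11 bases were scored in RPLP1 and RPS12, and none in RPL15.
RPLP1: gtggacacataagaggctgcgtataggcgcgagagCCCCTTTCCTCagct
RPS12: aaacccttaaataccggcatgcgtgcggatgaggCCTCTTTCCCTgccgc
RPL15: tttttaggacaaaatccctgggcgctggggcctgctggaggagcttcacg

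The third set are genes that differed between the untreated lines, RPLP0 at chr12:120201097-120201146, minus strand, RPS21 at chr20:62387068-62387117, plus strand, RPS26 at chr12:56041883-56041932, plus strand and RPL41 at chr12:56116598-56116647, plus strand. The paralog RPL7L1, at chr6:42879581-42879630, plus strand, is shown beside them. No run was scored in the windows of RPS26 and RPL7L1.
RPLP0: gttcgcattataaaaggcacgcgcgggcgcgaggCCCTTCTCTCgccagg
RPS21: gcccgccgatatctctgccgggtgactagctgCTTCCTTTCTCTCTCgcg
RPS26: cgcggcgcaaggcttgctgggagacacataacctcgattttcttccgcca
RPL41: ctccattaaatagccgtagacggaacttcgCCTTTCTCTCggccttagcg
RPL7L1: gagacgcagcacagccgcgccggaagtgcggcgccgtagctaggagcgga

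The run was found on both sides of the drug response. At 1 µM doxorubicin in parental cells it was found in 5 of the 8 rising genes with a window, in 33 of the 38 falling genes and in 13 of the 17 genes without a call. With these few rising genes the shares are given as counts and were not tested.

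The messages spanned a wide range of levels. RPL4 had the highest mean, 1604 CPM, followed by RPS2 (1534 CPM), RPL7 (1439.6 CPM), RPL8 (1011 CPM) and RPLP0 (978 CPM). At the other end stood RPS21 (95.2 CPM), the paralogs RPL26L1 (40.5 CPM), RPL39L (36.3 CPM) and RPL22L1 (34.4 CPM), and RPL17 (12.05 CPM). Per kilobase of transcript, RPS2 was highest at 1868 CPM per kb, then RPL7 (1545 CPM per kb) and RPS3A (1429 CPM per kb). RPL7L1 and RPL17 were lowest at 45.6 and 17.1 CPM per kb. Messages of this family are short, with a median transcript length of 683 bases against 1855 bases for all tested genes.

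RPL17 was just inside the minimum, and the next gene below it, RPL36A, had a mean of 0.383 CPM. RPS10 (0.338 CPM) also fell outside, although it encodes a core protein of the ribosome. RPL17, RPL36A and RPS10 each lie within a readthrough gene with its own symbol, and RPL17-C18orf32, RPL36A-HNRNPH2 and RPS10-NUDT3 are listed at 0 in every library. The counts of these genes are uncertain, because the sources used here do not say how reads shared by overlapping genes or near-identical copies were assigned. The same holds more widely, since ribosomal protein genes have many processed pseudogenes.

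The 77 genes together took 2.89% to 4.19% of the reads of a library, with a mean of 3.48%. Replicates differed by a pooled SD of 0.213 percentage points. In untreated cells the share was 3.44% ± 0.10 in DR cells and 3.39% ± 0.02 in PR cells, against 3.90% ± 0.40 in parental cells (SD, n = 2 each). The parental libraries were at 3.61% and 4.19%, both above the libraries of the untreated resistant lines, which ran from 3.37% to 3.51%. The lowest share of any group was 2.97% ± 0.10 in DR cells at 1 µM doxorubicin. Parental cells at that dose had 3.70% and 3.14%. In bulk RNA, less message per cell and a change in the makeup of the cells cannot be told apart, and a share of reads says nothing of the RNA content of a cell.

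**Figure D1:**
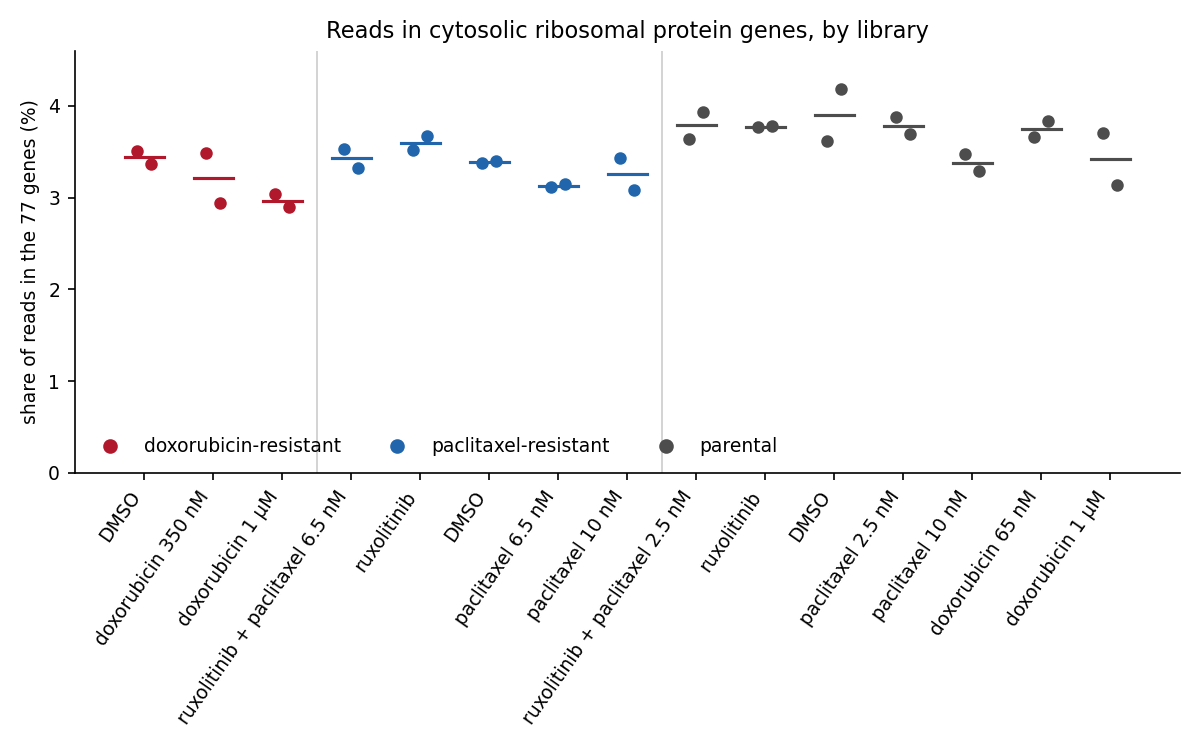
Share of all reads in genes that fell in the 77 ribosomal protein genes, in percent, for each of 30 libraries (points) with the mean of each group of 2 (bar). Shares run from 2.89% to 4.19%, the replicates of parental DMSO lie at 3.61% and 4.19%, and DR cells at 1 µM doxorubicin are lowest.

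The first question is how the resistant lines differ from parental cells without drug. In DR cells 0 of the 77 genes rose and 23 fell, with a median log2 fold change of -0.17 (limma, adjusted p under 0.05). Of all 12743 tested genes 12.3% were called up and 15.2% down, with a median near 0. The falls included both subunits, 9 of 28 small-subunit and 14 of 49 large-subunit genes. The largest was that of RPLP0, the base of the ribosomal stalk, which had 608 and 586 CPM in DR cells, against 1151 and 1335 CPM in parental cells. Its log2 fold change was -1.05 ± 0.09 (SE), adjusted p = 3.24e-09, and no DR library of any treatment overlapped any parental one. RPL6, a large-subunit protein, had 626 and 609 CPM in DR cells, against 909 and 1005 CPM in parental cells (-0.63 ± 0.07 (SE), adjusted p = 1.7e-07). RPSA, a protein of the small subunit also known as the laminin receptor, had 427 and 393 CPM, against 576 and 647 CPM (-0.57 ± 0.10 (SE), adjusted p = 6.73e-05). These 3 genes were lower in both DR libraries than in either parental library. RPS2 (-0.55 ± 0.12), RPL3 (-0.51 ± 0.09), RPS24 (-0.48 ± 0.10) and RPL13A (-0.46 ± 0.11) fell as well (log2 fold change ± SE).

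RPL6 and RPLP0 both lie on chromosome 12, with 35 tested genes between them in the order of the GRCh38.p14 annotation. Of the 37 genes from RPL6 to RPLP0, both included, 28 fell and 2 rose in DR cells, with a median log2 fold change of -0.59. In PR cells 8 of the 37 fell and 4 rose, with a median of -0.07. When DR was set against PR cells, 30 of the 37 fell and 0 rose, at a median of -0.47, while at an adjusted p under 0.05 the whole table had 15.6% up and 18.4% down. Among the 10 tested genes on either side of RPLP0, 19 of 20 were lower in DR than in parental cells (median -0.53), and the same count and median were found around RPL6. Around RPSA, on chromosome 3, 11 of 19 neighbours were lower and the median was -0.01. The stretch was chosen after these values had been seen, so it is a description.

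PR cells had more falls among the 77 genes. Of these 30 fell and 1 rose, with a median log2 fold change of -0.24, where 16.3% of all tested genes were called in each direction. RPS21, a small-subunit protein, had 68.8 and 67.4 CPM in PR cells, against 108 and 131 CPM in parental cells (-0.80 ± 0.12 (SE), adjusted p = 2.01e-05). RPS26, whose protein sits at the messenger RNA exit channel, had 80.1 and 76.8 CPM, against 118 and 135 CPM (-0.68 ± 0.10 (SE), adjusted p = 1.4e-05). RPLP1, a stalk protein, had 401 and 410.1 CPM, against 542 and 690.2 CPM (-0.59 ± 0.12 (SE), adjusted p = 0.00035). In all 3 genes the groups did not overlap. RPL4, the member with the highest mean CPM, had 1419 and 1428 CPM in PR cells, against 2016 and 2127 CPM (-0.54 ± 0.07 (SE), adjusted p = 1.34e-06). RPS23 (-0.61 ± 0.09), RPL36 (-0.59 ± 0.12), RPL41 (-0.56 ± 0.12) and RPL7 (-0.48 ± 0.07) also fell. The single rise was that of RPL39L, a copy of RPL39 known for its expression in testis, with 40.3 and 40.9 CPM in PR cells, against 28.9 and 35.4 CPM (0.34 ± 0.11 (SE), adjusted p = 0.0201).

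Neighbours were looked at in the same way in PR cells. Around RPS21, on chromosome 20, 17 of 20 neighbours were lower, with a median of -0.38. Around RPS26, on chromosome 12, 16 of 19 neighbours were lower, with a median of -0.32. For RPL41 14 of 19 were lower, with a median of -0.19. These neighbours overlap, since RPS26 and RPL41 are separated by 2 tested genes, of which 1 fell. Around the other falls named above, the neighbours had medians of -0.26 (RPLP1), -0.19 (RPL36), -0.17 (RPS23), -0.15 (RPL7) and -0.09 (RPL4). Of 20 neighbours each, 16, 17, 13, 13 and 14 were lower, in that order. Around RPL39L, on chromosome 3, 16 of 20 neighbours were higher in PR cells, with a median of 0.20. A link between a gene and its neighbours was not tested.

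The number of falls depended on which parental DMSO library was used. Without replicate 2, DR cells had 8 falls, at a median of -0.06, and PR cells 12, at -0.14. Without replicate 1 the counts were 30 in DR cells, at a median of -0.26, and 47 in PR cells, at -0.35. Leaving out a library of the resistant line gave 18 and 10 falls in DR cells (without replicate 1 and 2) and 14 and 15 in PR cells. RPLP0, RPL6 and RPSA in DR cells, and RPS21, RPS26, RPLP1 and RPL4 in PR cells, were called without any 1 of these libraries. RPL39L in PR cells was not called without parental DMSO replicate 1 or without either PR library. When each library was corrected for GC content and length of transcripts, 35 genes fell and 2 rose in DR cells, and 50 fell and 2 rose in PR cells. Over the whole table that correction gave 2812 falls and 2263 rises in DR cells, of 12149 genes. In PR cells it gave 2957 falls and 2769 rises. Without it there were 1936 falls in DR cells and 2076 in PR cells, of 12743 genes.

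Set against each other, the resistant lines differed in both directions. Between DR and PR cells 11 of the 77 genes were higher and 9 lower in DR cells, with a median of 0.08, against 15.6% of all tested genes up and 18.4% down. DR cells had more RPS21 (0.62 ± 0.12), RPS26 (0.57 ± 0.10), RPL41 (0.53 ± 0.12), RPS20 (0.48 ± 0.09) and RPS23 (0.44 ± 0.09). They had less RPLP0 (-0.71 ± 0.09), RPL39L (-0.54 ± 0.11), RPSA (-0.40 ± 0.10) and RPL18 (-0.35 ± 0.11). These shares are near those of the whole table. Any 1 library left out reduced the calls to 11 to 13. RPS20 had 589 and 577 CPM in DR cells, against 416 and 417 CPM in PR cells, with no overlap.

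**Figure D2:**
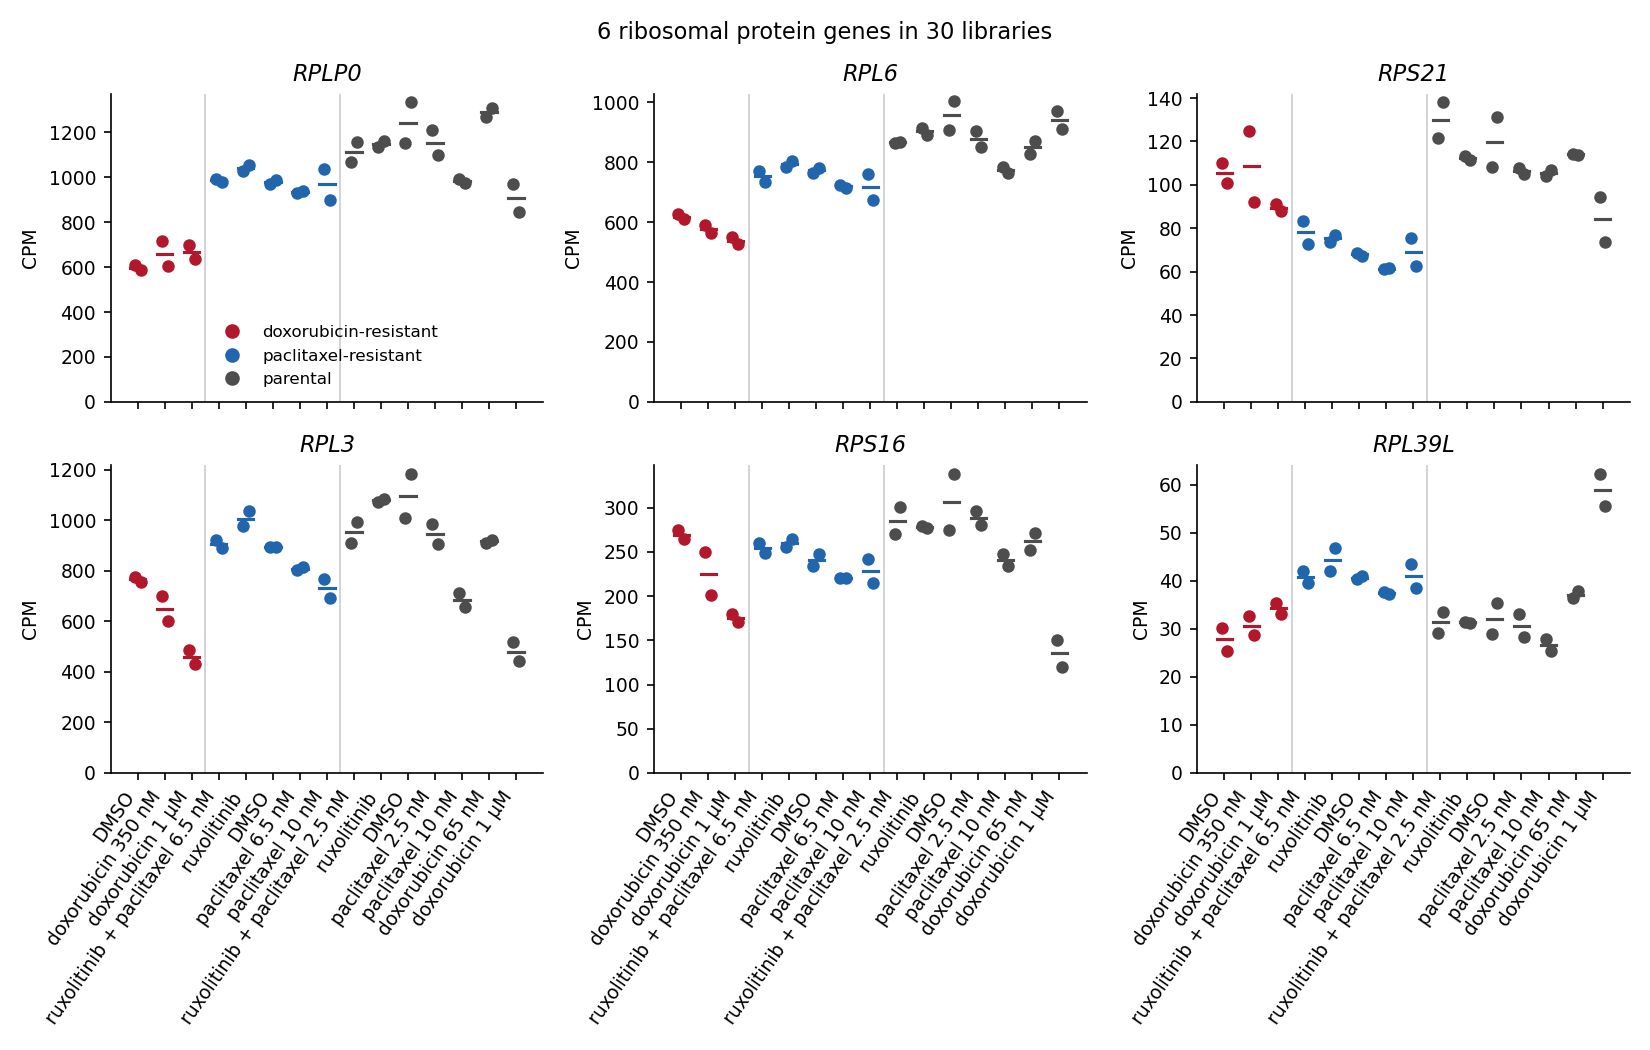
CPM of 6 ribosomal protein genes in 30 libraries, by line and treatment (points are libraries, bars the mean of 2; axes start at 0). RPLP0 and RPL6 are lower in all DR libraries than in all parental and PR ones, RPS21 is lowest in PR cells, and RPL3, RPS16 and RPL39L move at 1 µM doxorubicin.

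Paclitaxel lowered these messages in parental cells at the higher dose. At 10 nM, 54 of the 77 genes fell and 1 rose, and the median log2 fold change was -0.33. The whole set of tested genes had 28.1% down and 20.1% up. The falls included 20 of 28 small-subunit and 34 of 49 large-subunit genes. RPL3, a core protein near the peptidyl transferase centre, had 711 and 659 CPM at 10 nM, against 1008 and 1183 CPM in DMSO (-0.67 ± 0.09 (SE), adjusted p = 2.36e-06). RPS3, at the messenger RNA entry channel, had 750.2 and 692 CPM, against 1037 and 1247 CPM (-0.66 ± 0.10 (SE), adjusted p = 7.01e-06). RPS6, the substrate of the S6 kinases, had 614 and 601 CPM, against 869 and 963 CPM (-0.59 ± 0.07 (SE), adjusted p = 2.04e-07). The groups did not overlap in any of these 3 genes. RPL34 (-0.62 ± 0.09), RPL10A (-0.62 ± 0.10), RPL7A (-0.60 ± 0.09) and RPL13A (-0.58 ± 0.11) fell by similar amounts. RPL17 rose, with 16.6 and 17.00 CPM at 10 nM, against 9.79 and 12.3 CPM in DMSO (0.57 ± 0.14 (SE), adjusted p = 0.00166), but its count is uncertain as stated above. The falls numbered 32 without parental DMSO replicate 2.

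At 2.5 nM paclitaxel in parental cells 15 genes fell and 0 rose, with a median of -0.13, against 17.1% of all tested genes down and 9.71% up. RPS3A, a small-subunit protein, had 898 and 776 CPM, against 1198 and 1072 CPM in DMSO (-0.44 ± 0.09 (SE), adjusted p = 0.00234). RPL10A (-0.38 ± 0.10), RPL34 (-0.38 ± 0.09), RPL7 (-0.36 ± 0.07) and RPL5 (-0.30 ± 0.07) fell. The share of falls was close to that of the whole table. With the GC and length correction 1959 of 12149 tested genes fell. The falls numbered 0 without replicate 2 of 2.5 nM paclitaxel, 5 without parental DMSO replicate 1, 7 without replicate 2 (median -0.04), and 32 with the GC and length correction.

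PR cells responded with fewer calls. At 6.5 nM paclitaxel 0 genes were called by limma and 0 by voom, while 10 had an unadjusted p under 0.05, all lower. The median log2 fold change was -0.14. At an adjusted p under 0.05, 0.0706% of all tested genes were called up and 0.0235% down. At 10 nM, 8 genes fell and 0 rose, with a median of -0.08, against 6.99% of all tested genes down and 6.62% up. The 8 genes included RPL13A, RPL28, RPL3, RPL5, RPS6, RPL15 and RPL4. RPS6 had 609 and 578 CPM at 10 nM, against 734 and 719 CPM in DMSO (-0.29 ± 0.07 (SE), adjusted p = 0.00477). RPL13A had 514 and 538 CPM, against 693 and 683 CPM (-0.39 ± 0.11 (SE), adjusted p = 0.021). All 8 also fell in parental cells at the same dose, where they were 14.8% of the 54 falls. With 54 of the 77 genes falling in parental cells, much of this overlap follows from the counts alone. The overlap was not counted over all tested genes. The members' median was 0.04 without replicate 2 of 10 nM paclitaxel and -0.18 without replicate 1. With the GC and length correction 1907 of 12149 tested genes fell. The falls in PR cells numbered 13 and 1 without replicate 1 and 2 of 10 nM paclitaxel, 0 and 1 without replicate 1 and 2 of DMSO, and 28 with the GC and length correction.

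The difference between the lines in the response to 10 nM paclitaxel was tested directly. It was positive, meaning a higher log2 fold change in PR cells, for 7 genes and negative for 0, against 6.87% of all tested genes up and 3.88% down. The members' median difference was 0.27. RPS23 had 676 and 528 CPM at 10 nM in PR cells, against 603 and 612 CPM in DMSO, with overlapping groups. In parental cells it fell to 688 and 659 CPM, against 879 and 985 CPM in DMSO. The difference of its log2 fold changes was 0.44 ± 0.13 (SE), adjusted p = 0.0334. RPL34 (0.43 ± 0.13), RPL23 (0.43 ± 0.13), RPL7A (0.41 ± 0.12), RPL7 (0.35 ± 0.10), RPL23A (0.35 ± 0.11) and RPS6 (0.30 ± 0.09) also had the higher log2 fold change in PR cells. This count was not stable: it was 1 with median-of-ratios scaling and 29 with the GC and length correction. Leaving out replicate 1 or 2 gave 0 and 30 for PR cells at 10 nM paclitaxel, 0 and 0 for PR DMSO, 2 and 1 for parental cells at 10 nM paclitaxel, and 18 and 0 for parental DMSO. The median difference ran from 0.15 to 0.38 without any 1 library.

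**Figure D3:**
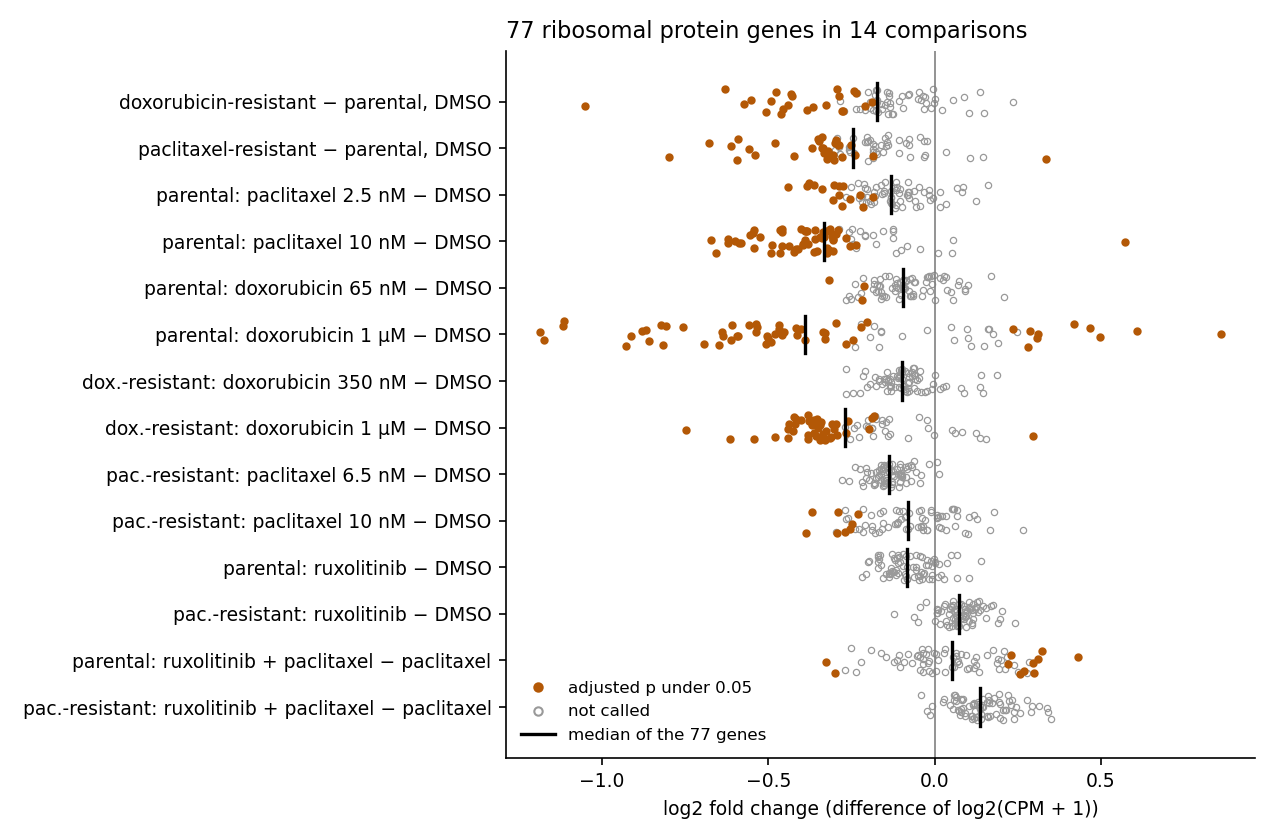
Log2 fold change, a difference of log2(CPM + 1), of each of the 77 genes in 14 comparisons (filled points passed an adjusted p of 0.05, open points did not, and the bar is the median). The medians lie farthest below 0 for parental cells at 1 µM doxorubicin (-0.39) and 10 nM paclitaxel (-0.33), and above 0 for ruxolitinib in PR cells.

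Doxorubicin at 1 µM was followed by changes in both directions. In parental cells 47 genes fell and 10 rose, with a median log2 fold change of -0.39. Of all tested genes 41.5% were called down and 34.3% up at this dose. The log2 fold changes of the 77 genes ran from -1.19 to 0.86. RPL3 had 517 and 444 CPM at 1 µM, against 1008 and 1183 CPM in DMSO (-1.19 ± 0.09 (SE), adjusted p = 3.24e-11). RPS16, a small-subunit protein near the decoding site, had 151 and 120.2 CPM, against 275 and 338 CPM (-1.17 ± 0.11 (SE), adjusted p = 6.41e-10). RPS14, the gene whose loss causes the anaemia of a myelodysplastic syndrome, had 359 and 301 CPM, against 642 and 797 CPM (-1.12 ± 0.11 (SE), adjusted p = 2.04e-09). RPL34, a large-subunit protein, had 67.3 and 66.6 CPM, against 142 and 151 CPM (-1.12 ± 0.09 (SE), adjusted p = 1.92e-10). In each of these 4 genes both treated libraries were below both DMSO libraries. RPL19 (-0.91 ± 0.09), RPS6 (-0.88 ± 0.07) and RPL7A (-0.87 ± 0.09) also fell.

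The rising genes were few and from both subunits. RPL39L had 62.3 and 55.5 CPM in parental cells at 1 µM doxorubicin, against 28.9 and 35.4 CPM in DMSO (0.86 ± 0.11 (SE), adjusted p = 1.65e-07). RPS20, a small-subunit protein, had 860.1 and 760.4 CPM, against 516 and 545 CPM (0.61 ± 0.09 (SE), adjusted p = 1.64e-06). RPS12, also of the small subunit, had 501 and 443 CPM, against 317 and 365 CPM (0.47 ± 0.10 (SE), adjusted p = 0.000192). In all 3 the treated libraries were above both DMSO libraries. RPLP1 (0.50 ± 0.12), RPL17 (0.42 ± 0.14), RPL15 (0.31 ± 0.07), RPL24 (0.31 ± 0.10), RPL41 (0.29 ± 0.12), RPL7L1 (0.28 ± 0.07) and RPL12 (0.24 ± 0.10) completed the 10. With median-of-ratios scaling 15 genes rose and 41 fell, and the median was -0.29. With the GC and length correction 6 rose and 55 fell, at a median of -0.50. The whole table then had 4464 up and 5458 down of 12149 genes. Rises numbered 18 without replicate 2 of 1 µM doxorubicin and 6 without its replicate 1 or without parental DMSO replicate 1, and falls 40 to 54 without any 1 library. Across the 77 genes the log2 fold change had a Spearman rho of -0.34 with transcript length and -0.29 with mean CPM, a description over genes measured in the same libraries.

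The lower doses gave few calls. At 65 nM in parental cells RPL5, RPS6 and RPL4 fell and 0 genes rose, with a median of -0.09. Of all tested genes 5.94% were down and 5.21% up, and 1493 of 12149 fell with the GC and length correction. RPL5 had 664 and 659 CPM, against 822 and 829 CPM in DMSO (-0.32 ± 0.07 (SE), adjusted p = 0.00392). At 350 nM in DR cells 0 genes were called by limma and 0 by voom, 4 had an unadjusted p under 0.05, all lower, and the median was -0.10. Of all tested genes 2.39% were up and 1.43% down there at an adjusted p under 0.05. The median at 65 nM was 0.03, with 1 rise and 2 falls, without parental DMSO replicate 2, and that at 350 nM was 0.01 without replicate 2 of that dose and -0.21 without replicate 1. The 3 calls at 65 nM became 1 without replicate 1 and 0 without replicate 2 of that dose, and 18 with the GC and length correction.

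In DR cells at 1 µM doxorubicin 43 genes fell and 1 rose, with a median log2 fold change of -0.27. Of all tested genes 19.9% were down and 19.1% up. RPL3 was again the largest fall, with 486 and 429.6 CPM at 1 µM, against 777 and 757 CPM in DMSO (-0.75 ± 0.09 (SE), adjusted p = 8.25e-07). RPS16 had 180.3 and 171 CPM, against 275 and 264 CPM (-0.61 ± 0.11 (SE), adjusted p = 7.65e-05). RPL10A had 195 and 173 CPM, against 275 and 262 CPM (-0.54 ± 0.10 (SE), adjusted p = 0.000166). In each of these genes both treated libraries were below both DMSO libraries. RPL37 (-0.48 ± 0.11), RPL13 (-0.44 ± 0.11), RPL28 (-0.44 ± 0.11) and RPS14 (-0.44 ± 0.11) fell too. The rise was that of RPL39L, with 35.3 and 33.2 CPM at 1 µM, against 30.1 and 25.5 CPM in DMSO (0.30 ± 0.11 (SE), adjusted p = 0.0345), and it was not called without DR DMSO replicate 2 or without either treated library. Falls numbered 17 without DR DMSO replicate 1 and 18 without replicate 2 of 1 µM doxorubicin.

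The responses of both lines to 1 µM doxorubicin rest on separate libraries, so they can be set side by side. Of the 77 genes 54 were lower in both lines and 5 higher in both. A further 16 were lower in DR but higher in parental cells, and 2, RPLP0 and RPSA, were higher in DR but lower in parental cells. Across the genes, which are not independent, the log2 fold changes had a Pearson r of 0.684 and a Spearman rho of 0.618. Of the falls 33 were shared, which is 76.7% of those in DR cells and 70.2% of those in parental cells. RPL39L rose in both lines. With 47 falls in parental and 43 in DR cells among 77 genes, some overlap follows from these counts alone. The overlap and the shared directions were not counted over all tested genes.

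**Figure D4:**
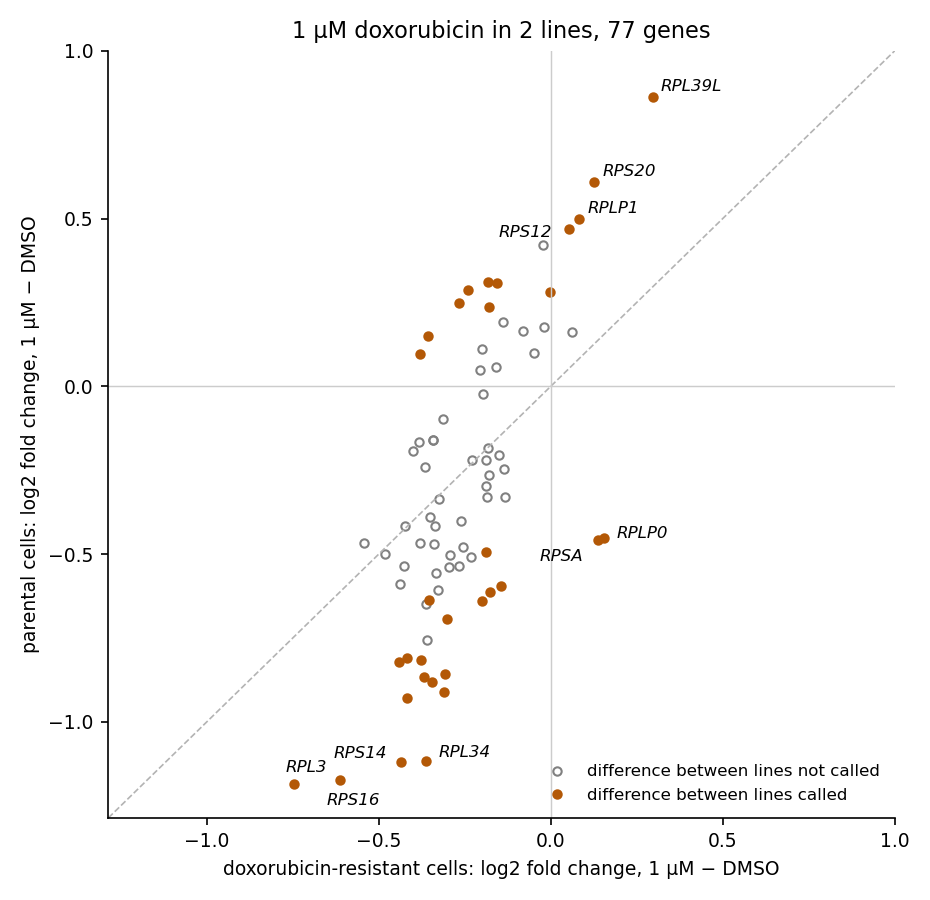
Log2 fold change at 1 µM doxorubicin against DMSO of the 77 genes in DR cells (horizontal) and parental cells (vertical). Filled points are the 32 genes whose response differed between the lines at an adjusted p under 0.05, and the dashed line marks equal responses. Most points lie below 0 in both lines and are spread more widely in parental cells.

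The difference between the responses was called for 32 genes, 20 with a higher and 12 with a lower log2 fold change in DR than in parental cells. Of all tested genes 33.2% were called in the first direction and 25.1% in the second. With median-of-ratios scaling the split was 17 and 17. RPL34 had the largest positive difference, 0.75 ± 0.13 (SE), adjusted p = 4.21e-05. It had 112 and 108 CPM at 1 µM in DR cells, against 146 and 137 CPM in DMSO. RPS14 (0.68 ± 0.15), RPL19 (0.60 ± 0.13), RPS16 (0.56 ± 0.15), RPS7 (0.55 ± 0.12) and RPS6 (0.54 ± 0.09) also had the higher log2 fold change in DR cells. RPLP0 (0.61 ± 0.13) and RPSA (0.59 ± 0.14), low in untreated DR cells, had log2 fold changes of 0.16 and 0.14 in DR cells, neither called, against -0.45 and -0.46 in parental cells. On the other side, RPL39L (-0.56 ± 0.15), RPL41 (-0.53 ± 0.17), RPS29 (-0.52 ± 0.18), RPL30 (-0.51 ± 0.15) and RPL15 (-0.49 ± 0.10) had the lower response in DR cells. The direction of the median difference turned without parental DMSO replicate 2 and without parental 1 µM doxorubicin replicate 2, where the splits were 15 to 16 and 15 to 19. With the GC and length correction it was 34 to 7, against 4748 up and 3596 down of 12149 tested genes.

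Ruxolitinib alone left no call in this family. In PR cells 0 genes were called by limma and 0 by voom, 2 had an unadjusted p under 0.05, both higher, and the median was 0.07. In parental cells 0 were called by limma and 0 by voom, 1 had an unadjusted p under 0.05, lower, and the median was -0.08. That median was 0.03 without parental DMSO replicate 2 and -0.19 without replicate 1. At an adjusted p under 0.05, 2.86% of all tested genes were up and 4.06% down in PR cells. In parental cells 5.51% were up and 7.71% down. The difference between the lines was called for 0 genes by limma and 0 by voom, with 0 at an unadjusted p under 0.05, against 0.298% of all tested genes up and 0.11% down. Its median was 0.15, against 0.01 over all tested genes. The members' median was 0.05 without parental DMSO replicate 2 and 0.27 without replicate 1. RPL22L1, a copy of RPL22, had 37.05 and 40.6 CPM in PR cells with ruxolitinib, against 33.3 and 32.1 CPM in DMSO (0.24 ± 0.11 (SE), adjusted p = 0.211). It was higher in both treated libraries but did not pass the threshold.

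Added to 2.5 nM paclitaxel in parental cells, ruxolitinib went with 9 rises and 2 falls relative to paclitaxel alone, with a median of 0.05. Of all tested genes 15.1% were up and 12.9% down. RPS3A had 1168 and 1085 CPM with both drugs, against 898 and 776 CPM with paclitaxel alone (0.43 ± 0.09 (SE), adjusted p = 0.00197). RPL26 (0.32 ± 0.09), RPL31 (0.31 ± 0.11), RPL34 (0.30 ± 0.09) and RPL21 (0.30 ± 0.10) rose, and RPS2 (-0.33 ± 0.12) and RPL12 (-0.30 ± 0.10) fell. The count fell to 0 without replicate 2 of paclitaxel alone or without replicate 1 of the combination. The median was -0.02 without replicate 2 of paclitaxel alone and -0.01 without replicate 2 of the combination, where 5 rose and 4 fell. In PR cells the combination against 6.5 nM paclitaxel alone gave 0 calls by limma and 0 by voom. There 20 genes had an unadjusted p under 0.05, all higher, and the median was 0.14. At an adjusted p under 0.05, 1.16% of all tested genes were up and 2.12% down. The share of all genes at an unadjusted p was not counted. With the GC and length correction 11 genes rose there, against 517 of 12149 tested genes. With ruxolitinib alone in parental cells 6 fell under that correction, against 1861 of all tested genes.

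By role, the stalk genes are described first. RPLP0 fell in DR cells as given above. RPLP1 was the only one of the 3 stalk genes to rise at 1 µM doxorubicin in parental cells, with 999.8 and 746 CPM, against 542 and 690.2 CPM in DMSO (0.50 ± 0.12 (SE), adjusted p = 0.000495). RPLP2 had 208 and 153 CPM there, against 171 and 214 CPM, with overlapping groups (-0.10 ± 0.12 (SE), adjusted p = 0.476). In DR cells at 1 µM doxorubicin RPLP2 fell (-0.31 ± 0.12), a call lost with median-of-ratios scaling (adjusted p = 0.0534).

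The 5S RNA partners RPL5 and RPL11 fell at both high doses in parental cells. RPL5 had 530.5 and 531 CPM at 1 µM doxorubicin, against 822 and 829 CPM in DMSO (-0.64 ± 0.07 (SE), adjusted p = 1.39e-08), and RPL11 had a log2 fold change of -0.30 ± 0.10 (SE), adjusted p = 0.00959. At 10 nM paclitaxel their log2 fold changes were -0.40 ± 0.07 and -0.39 ± 0.10. RPL5 was among the genes called at both lower doses in parental cells and at the higher dose in both resistant lines. RPL11 in DR cells at 1 µM doxorubicin, at -0.19 ± 0.10, was not called (adjusted p = 0.136).

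RPL19 and RPL23 lie near ERBB2 on chromosome 17, the gene amplified in SUM190. In untreated cells RPL23 had 338 and 331 CPM in DR cells and 270.3 and 273 CPM in PR cells, against 310.1 and 359.8 CPM in parental cells. Only the PR difference was called (-0.30 ± 0.09 (SE), adjusted p = 0.0186). RPL19 had 265 and 239 CPM at 1 µM doxorubicin in parental cells, against 427 and 527 CPM in DMSO, a log2 fold change of -0.91 ± 0.09, and RPL23 fell as well (-0.34 ± 0.09).

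Ribosomal proteins made as fusions with ubiquitin or a ubiquitin-like protein did not follow a single course. RPS27A, a member, had 628 and 604 CPM at 1 µM doxorubicin in parental cells, against 665 and 757 CPM in DMSO (-0.20 ± 0.08 (SE), adjusted p = 0.0249). FAU, which encodes the small-subunit protein eS30 and has a symbol outside the rule, rose there, with 186 and 132 CPM, against 89.9 and 115 CPM (0.62 ± 0.13 (SE), adjusted p = 0.000226). GNB2L1, now called RACK1, a scaffold on the small subunit, fell to 559 and 502 CPM, against 1014 and 1223 CPM in DMSO (-1.07 ± 0.09 (SE), adjusted p = 3.43e-10). RPL36AL, also outside the rule, was lower in DR cells, with 94.5 and 100.4 CPM, against 136 and 163 CPM in parental cells (-0.61 ± 0.10 (SE), adjusted p = 8.41e-05).

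Paralog copies departed from their parent genes in some conditions. RPL39L rose at 1 µM doxorubicin in parental cells, where RPL39 had 298 and 231 CPM, against 211 and 251 CPM in DMSO (0.19 ± 0.13 (SE), adjusted p = 0.191). RPL7L1, which takes part in ribosome assembly, had 224 and 229 CPM, against 185 and 188 CPM (0.28 ± 0.07 (SE), adjusted p = 0.000775), while its parent RPL7 had 1035 and 1072 CPM, against 1827 and 1868 CPM (-0.81 ± 0.07 (SE), adjusted p = 6.23e-10). Here the copy rose and the parent fell. RPL22L1 was lower in DR cells, with 29.02 and 27.2 CPM, against 39.02 and 38.8 CPM in parental cells (-0.45 ± 0.11 (SE), adjusted p = 0.002). RPL22 had 383 and 366 CPM in DR cells, against 359.5 and 389.5 CPM (-0.00 ± 0.07 (SE), adjusted p = 1). RPL26L1 and RPL26 fell by 0.33 ± 0.10 and 0.40 ± 0.09 on the log2 scale at 1 µM doxorubicin in parental cells. The difference between a copy and its parent was not tested.

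Across the 15 group means of log2(CPM + 1), the Pearson r of each gene with the median of the 77 ran from -0.26 to 0.95, with a median of 0.69. The points share libraries and scaling, so r is a description with no p. It was below 0 for 4 genes, RPL17, RPL39L, RPL7L1 and RPS20. A trio, RPLP1, RPL41 and RPS26, had r of 0.12, 0.23 and 0.16 with the median, but resembled each other with r of 0.92 to 0.94. All 3 were lowest in PR cells and highest in parental cells at 1 µM doxorubicin. RPS20 was most like RPL23A (r 0.84), RPS12 (0.80) and RPS13 (0.79). RPL22L1 was most like RPS29 (0.93), RPL6 (0.90) and RPL35A (0.85).

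**Figure D5:**
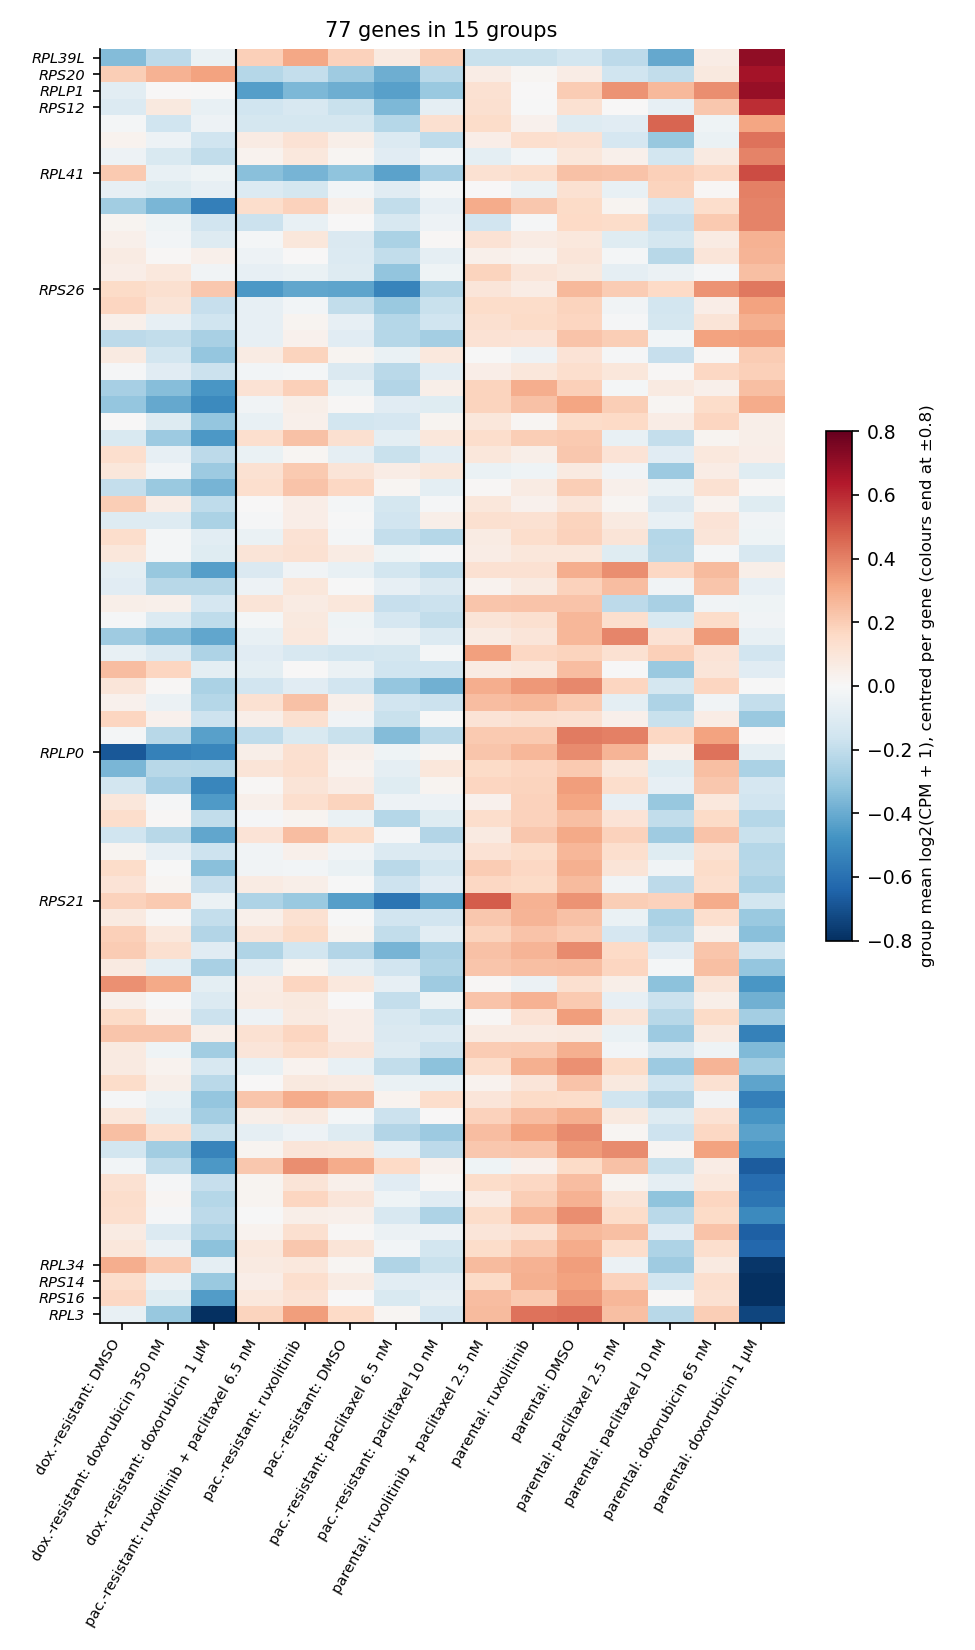
Group means of log2(CPM + 1), centred on each gene's mean over 15 groups, for the 77 genes (rows, ordered by log2 fold change at 1 µM doxorubicin in parental cells) and 15 groups (columns); colours end at 0.8 on either side of 0, and the 12 rows with a name are genes described in the text. The last column, parental cells at 1 µM doxorubicin, holds both the highest and the lowest values of many rows, and RPLP0 is lowest in the DR columns.

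Other genes of the translation machinery were counted for comparison, from lists chosen with earlier results of these data known. Of 25 translation factors and related TOP genes, 16 fell and 1 rose at 10 nM paclitaxel in parental cells, with a median of -0.32, against 28.1% of all tested genes down and 20.1% up. At 1 µM doxorubicin 8 fell and 0 rose in DR cells, against 19.9% of all tested genes down and 19.1% up. In parental cells 16 fell and 3 rose (median -0.37), against 41.5% down and 34.3% up. The largest falls in parental cells at that dose were those of HNRNPA1, an RNA-binding protein (-1.57 ± 0.07), EIF4B, a helicase cofactor (-1.04 ± 0.06), and EEF2, the translocase (-0.95 ± 0.09). In untreated cells 11 fell and 1 rose in DR cells, against 15.2% of all tested genes down and 12.3% up, and 10 fell and 1 rose in PR cells, against 16.3% in each direction. The rise in both was EIF2S3, a subunit of initiation factor eIF2, at 0.41 ± 0.08 in DR and 0.45 ± 0.08 in PR cells.

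Ribosome biogenesis genes were counted next. In untreated cells 13 of 49 fell and 1 rose in DR cells (median -0.13), against 15.2% of all tested genes down and 12.3% up. In PR cells 18 fell and 0 rose (median -0.22), against 16.3% in each direction. Of the 49 ribosome biogenesis genes, 10 fell and 9 rose at 10 nM paclitaxel in parental cells (median 0.04), against 28.1% of all tested genes down and 20.1% up. At 1 µM doxorubicin 25 fell and 11 rose (median -0.19), against 41.5% down and 34.3% up. BOP1, which processes the precursor of the large-subunit RNAs, fell most at 1 µM doxorubicin (-1.84 ± 0.16), and RRN3, an initiation factor of RNA polymerase I, rose most (1.43 ± 0.09). With ruxolitinib in parental cells 17 fell and 0 rose (median -0.27), against 7.71% of all tested genes down and 5.51% up. The falls included RRS1 (-0.63 ± 0.11), NOP56 (-0.53 ± 0.10) and NOP2 (-0.46 ± 0.10). None of the 77 ribosomal protein genes was called there by limma, as given above. Of 73 genes for proteins of the mitochondrial ribosome, 26 rose and 26 fell at 1 µM doxorubicin in parental cells (median 0.04), which is 35.6% in each direction, against 34.3% of all tested genes up and 41.5% down.

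Of 12 genes that control the translation of TOP messages, 8 fell and 3 rose at 1 µM doxorubicin in parental cells, against 41.5% of all tested genes down and 34.3% up. DDIT4, an inhibitor of mTOR signalling, fell by 3.16 ± 0.09 on the log2 scale, and TSC2 (-1.51 ± 0.10) and MYC (-1.30 ± 0.08) fell as well. TSC1 (1.35 ± 0.08) and SESN2 (1.12 ± 0.12) rose. LARP1 fell in untreated DR cells (-0.39 ± 0.10). Of 8 ribosome rescue and quality control genes, 6 fell and 1 rose at 1 µM doxorubicin in parental cells, where the same shares of all tested genes apply.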

How the data were processed

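The authors deposited 1 table of 20114 gene symbols in 30 libraries, in log2 units, made as log2(CPM + 1) with CPM scaled between libraries by TMM factors, per the deposited table's name and values. STAR 2.5.1b, edgeR and the build GRCh37 (hg19) are named in the submitters' processing notes on the authors' pipeline. How reads were counted, and with which annotation, is not given in the sources used here. In every library the CPM were whole multiples of 1 step within a tolerance of 0.01, which gave the read totals, 18443749 to 32669995. A count of 0 allows up to 3 reads, or 0.0947 to 0.163 CPM by library, and covers counting error only.

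Differences were tested on the deposited log2 values with limma 3.58.1 in R 4.3.3, two-sided, in a means model of 15 groups over 12743 genes with at least 1 CPM in at least 2 libraries. The fit had trended, robust moderated variances, 15 residual degrees of freedom and 8.08 prior ones (median), so all groups share 1 spread per gene. Calls were made at an adjusted p under 0.05, by the Benjamini-Hochberg method over all tested genes of a comparison. Shares of all tested genes are at that threshold, so they are not a background for counts at an unadjusted p. Errors of log2 fold changes are standard errors, and the added 1 in the log shrinks the change of low genes. The 18 comparisons include 3 that test a difference of responses between lines. Comparisons against the same DMSO libraries share those controls and are not independent.

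The named genes are the 5 highest and the 5 lowest by mean CPM, up to 8 called genes per direction and the 4 genes farthest from the family's median in each comparison, fixed role groups, paralogs with their parents, and up to 5 called genes of each other list. The members, the lists and the rule were chosen with earlier results of these data known. Some genes that the rule names are not reported here. Alternatives were a pseudocount of 0.25, no filter, a block for the replicate number, median-of-ratios scaling, a fit of only the lines compared, a correction for transcript GC content and length (values for 95.3% of tested genes), and leaving out each library. A voom fit to the recovered reads, and a GC and length trend fitted on the other genes, were added after the data were seen. A count test planned with edgeR was not run, and the voom fit to the recovered reads took its place. Start windows and gene order came from RefSeq on GRCh38.p14, not the authors' build, and coordinates belong to that assembly. Python 3.11.15 and pandas 2.3.3 were used to derive counts and medians. The fit was tested on simulated data.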

Additional observations from a re-analysis of the deposited data

Results flagged for a closer look

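The response to 1 µM doxorubicin differed between DR and parental cells, by a test of the difference itself, in 32 ribosomal protein genes. On the log2 scale, as the DR minus the parental fold change, the named genes with a higher response in DR cells were RPL34 (0.75), RPS14 (0.68), RPLP0 (0.61), RPL19 (0.60), RPSA (0.59), RPS16 (0.56), RPS7 (0.55), RPS6 (0.54) and RPL5 (0.28). Those with a lower response in DR cells included RPL39L (-0.56), RPL41 (-0.53), RPS29 (-0.52), RPL30 (-0.51), RPL15 (-0.49), RPS20 (-0.48), RPL24 (-0.47), RPLP1 (-0.42) and RPL7L1 (-0.28). The difference was called for 33.2% of all tested genes in the first direction and 25.1% in the second, so the family's count of 32 of 77 is below the share of the table.

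The response to 10 nM paclitaxel differed between PR and parental cells, by the same kind of test, in 7 genes. As the PR minus the parental log2 fold change these were RPS23 (0.44), RPL34 (0.43), RPL23 (0.43), RPL7A (0.41), RPL7 (0.35), RPL23A (0.35) and RPS6 (0.30). The parental DMSO libraries enter both differences, and these libraries stood apart from each other as described above. Without replicate 1 and without replicate 2 of them, the doxorubicin difference was called in 25 genes up and 6 down and in 15 up and 16 down, and the paclitaxel difference in 18 genes up and in 0.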

How the results depend on the processing

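The counts of called genes of the family were within 1.5 times those reported in all 18 comparisons with a pseudocount of 0.25, with the replicate number as a block and with voom on recovered reads. With the block, DR against parental cells had 0 rises and 23 falls, and PR against parental cells 1 and 29. Whether the replicate numbers pair the libraries is not known. Deviations of same-numbered libraries correlated from -0.69 to 0.65 over 105 pairs of groups, above 0.1 in 30. Such correlations cannot settle it, because library effects that follow GC content enter them. The share of reads without members that have near-identical copies lay within the spread between replicates.

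The correction for GC content and length moved 11 counts, to 37 in DR and 52 in PR against parental cells, to 32 and 18 at the lower paclitaxel and doxorubicin doses in parental cells, to 3 in DR cells at 350 nM doxorubicin, to 1 and 28 in PR cells at 6.5 and 10 nM paclitaxel, to 2 with ruxolitinib in PR and 6 in parental cells, to 11 for the combination in PR cells and to 29 for the paclitaxel difference. With the trend of the other genes these were 38, 52, 32, 18, 4, 1, 27, 2, 6, 10 and 30 in the same order. Calls over the whole table rose under the correction in these comparisons too, except at 2.5 nM paclitaxel in parental cells. Median-of-ratios scaling moved 1 count, the paclitaxel difference, to 1. It moved the median of all genes by 0.08 at 1 µM doxorubicin in parental cells. Without the filter, PR cells at 10 nM paclitaxel had 5 calls and the parental combination 7. A fit of only the lines compared gave 7 at 2.5 nM paclitaxel and 1 at 65 nM doxorubicin in parental cells, 22 in PR cells at 10 nM paclitaxel, 2 with ruxolitinib in PR cells, 4 and 6 for the combinations in parental and PR cells, and 2 for the paclitaxel difference.

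Leaving out 1 library leaves a group of 1, assumed to vary like the others. The counts then ran from 8 to 30 in DR and 13 to 47 in PR against parental cells and 11 to 13 in DR against PR cells. In parental cells they ran from 0 to 17 and 33 to 64 at the lower and higher paclitaxel dose, 0 to 3 and 52 to 60 at the lower and higher doxorubicin dose, 0 to 1 with ruxolitinib and 0 to 11 for the combination. They ran from 18 to 35 in DR cells at 1 µM doxorubicin, 0 to 13 in PR cells at 10 nM paclitaxel, 0 to 1 for the PR combination, 27 to 34 for the doxorubicin difference and 0 to 30 for the paclitaxel difference. The doxorubicin difference changed direction without parental DMSO replicate 2 (31 calls) and without parental 1 µM doxorubicin replicate 2 (34 calls). The cause was not tested. Of the values of called named genes under all alternatives, 1672 kept the call and direction, 340 lost the call and 0 reversed. Named genes without a call were not counted here. A count test with edgeR was not run.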

Other observations

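In untreated cells the 13 mitochondrially encoded genes had a median log2 fold change of 0.62 in DR and 0.58 in PR against parental cells, with 1 of them called in each line. They took 1.15% and 1.01% of reads in DR cells and 1.31% and 0.932% in PR cells, against 0.511% and 0.929% in parental cells. The parental DMSO libraries, which differed in the ribosomal protein genes, thus also differed in these.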
